A study of Mus musculus with 8 samples.

Results

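The cytosolic ribosomal protein genes were examined as 88 loci of the RNA-Seq count table, out of 44396 loci in all. A locus was taken when the gene name most often attached to it was that of a large-subunit (Rpl, 55 loci) or small-subunit (Rps, 33 loci) ribosomal protein. Ribosomal S6 kinases and pseudogene names were left out. The 88 loci carried 85 gene symbols, because Rpl29 was assigned to 3 loci and Rpl26 to 2. Of these loci, 78 had several exon blocks and 10 had a single block after overlapping entries were merged. A single block need not mean an unspliced gene: at Rps27a, 11 entries merged into 1 block. All 88 passed the filter on low counts that left 20350 loci for testing. The name of a locus was the most frequent of its entries that gave a gene. When entries without a name were counted as well, 73 of the loci were retained.

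Ribosomal proteins assemble with ribosomal RNA into the large and small subunits of the cytosolic ribosome, which together translate messenger RNA. Their messenger RNAs are among the most abundant of a growing cell and begin with a pyrimidine-rich stretch, the 5′ terminal oligopyrimidine (TOP) tract, through which mTOR signalling controls their translation. Ribosomal protein genes have also left many processed copies in the mouse genome, made by reverse transcription of the spliced messenger RNA, so short reads from the gene and from a copy can be hard to tell apart.

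The libraries were made from mouse embryonic stem cells (mESCs) that carry an Oct4-GFP reporter and were grown without feeders on gelatin, in a medium with LIF and the 2i inhibitors. Control cells received the NaCl vehicle and treated cells 10 µM morphine, an opioid receptor agonist, both for 24 h. Each condition had 2 RNA-Seq libraries and 2 ChIP-Seq libraries for H3K27me3, the repressive histone mark laid down by Polycomb repressive complex 2 (PRC2). The RNA-Seq libraries held 27820199 and 29531096 counts in control and 25081266 and 28052049 counts after morphine. All conditions came from the same reporter line, so the replicates describe the spread between libraries of that line. In the same counts the 10 stem cell markers were all present, with Pou5f1 at 1183, 1272, 1507 and 1370 CPM (counts scaled to library size) in control replicates 1 and 2 and morphine replicates 1 and 2. Of these markers 3 had an estimate above 0, with a median log2 fold change of -0.03, from Nanog at -0.12 to Pou5f1 at 0.23. Fibroblast markers summed to 255 and 263 CPM in control and 285 and 280 CPM after morphine, nearly all of it Vim. Primitive endoderm markers, with 1 locus taken per gene because Sox17 was listed 7 times, summed to 18.5 and 16.7 CPM in control and 19.4 and 20.4 CPM after morphine. In both lists the 2 groups did not overlap and all 4 tested genes had an estimate above 0. With length and GC trends removed, Col1a1, Col1a2, Thy1 and Gata4 had estimates below 0. Vim, Gata6 and Sox7 stayed above 0, and the Sox17 entries lay on both sides. Mesoderm markers summed to 3.80 to 5.06 CPM and neuroectoderm markers to 41.1 to 44.8 CPM, with overlapping groups. Col3a1 and T did not pass the filter on low counts. None of the tested marker loci passed an FDR of 0.05 in edgeR's quasi-likelihood test. At an unadjusted p under 0.05, 2 of the 10 stem cell markers were higher and 1 lower, and 1 of the 4 fibroblast markers was higher. Of all tested loci 9.7% were higher and 10.8% lower. DESeq2 called 2 stem cell markers (3.2% of all loci called) and the edgeR exact test 1 (3.88% of all loci called). Their part in the ribosomal protein values was not tested. In RNA from whole cultures, fewer cells of a type and less RNA per cell cannot be told apart.

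Because 77 of the 88 loci had at least 1 genomic copy, the sequences behind the largest changes are shown first. A copy was any stretch outside the locus that matched at least 80% of the coding sequence at 95% identity or more. For loci without an annotated coding transcript of that name, such as Rpl32l and Rps4l, the exon blocks were searched instead. Shorter matches were not counted, so a locus listed without a copy can still have shorter ones. The 610 matches lay at 605 distinct positions, and 386 of the matches lay over no locus of the count table. For 67 loci a copy reached 98% identity, called near-identical below. Rps23 encodes a small-subunit protein of the decoding centre, and 4 of its 11 copies were near-identical. Coding bases 50 to 139 of 429 are given below for Rps23 and for its 3 most similar copies, read from GRCm38, with capitals at the bases that differ between the gene and any of these copies.
Rps23 (spliced coding sequence of the chromosome 13 locus, + strand): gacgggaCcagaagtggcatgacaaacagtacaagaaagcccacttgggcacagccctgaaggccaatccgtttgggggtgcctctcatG
Rps23 copy on chromosome 3 (chr3:37714789-37714878, + strand): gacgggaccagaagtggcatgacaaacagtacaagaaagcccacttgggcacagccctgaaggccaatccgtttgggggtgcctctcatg
Rps23 copy on chromosome 8 (chr8:3584092-3584181, - strand): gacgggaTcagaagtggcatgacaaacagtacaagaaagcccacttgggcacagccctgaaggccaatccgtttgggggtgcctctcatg
Rps23 copy on chromosome 8 (chr8:25454322-25454411, + strand): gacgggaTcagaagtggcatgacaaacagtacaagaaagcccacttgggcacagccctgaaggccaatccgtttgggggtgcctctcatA

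The copy on chromosome 3 was identical to Rps23 over all 429 coding bases, and the 2 copies on chromosome 8 differed at 2 and 4 bases. Over the coding sequence, Rps23 and the chromosome 3 copy cannot be told apart by their letters. The table listed the chromosome 3 copy, under the name Gm5148, with 0 counts in all 4 libraries. The chromosome 8 copies held 66, 42, 62 and 54 counts and 7, 4, 3 and 4 counts in the order control 1, control 2, morphine 1 and morphine 2.

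Rpl30 encodes a large-subunit protein, and 6 of its 13 copies were near-identical. Coding bases 7 to 96 of 345 are shown for the gene and for its copy on chromosome 11, the best match. In the gene, capitals mark every position that differed in any of the 5 full-length near-identical copies.
Rpl30 (spliced coding sequence of the chromosome 15 locus, - strand): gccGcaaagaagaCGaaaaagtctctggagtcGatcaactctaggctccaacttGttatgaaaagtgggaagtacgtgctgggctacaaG
Rpl30 copy on chromosome 11 (chr11:49678962-49679051, - strand): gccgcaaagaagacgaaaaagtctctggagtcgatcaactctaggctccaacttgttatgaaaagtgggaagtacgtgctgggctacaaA

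The chromosome 11 copy differed from Rpl30 at 1 base of 345. The table listed this copy as Gm12191 with 1, 2, 3 and 1 counts, while Rpl30 itself held between 223 and 523 counts.

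Rps29 encodes a small zinc-binding protein of the small subunit, and 3 of its 7 copies were near-identical. The copy on chromosome 2 was identical over the whole coding sequence. It lay in an unnamed locus that held 2260, 2360, 2858 and 2599 counts, against 23, 27, 43 and 30 counts at the locus of the copy on chromosome 5, which was 98.2% identical.

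Among the 88 loci, Rps23 was upregulated and Rpl30 was downregulated after morphine, and no other locus passed an FDR of 0.05 in edgeR's quasi-likelihood test. These 2 calls were 2.27% of the loci, beside 1.52% of all tested loci (309 of 20350, 125 higher and 184 lower). Under total-count scaling 8 ribosomal protein loci were called, 6 higher and 2 lower, beside 2.53% of all loci (281 higher and 234 lower). With 1 library left out, the lone library of that condition is assumed to vary like the 2 of the other, so the spread rests on those 2 alone. Fitted in this way, the test called 11 of the 88 loci without control replicate 1 (1.79% of all loci called) and 30 without control replicate 2 (7.9% of all loci). It called 2 without morphine replicate 1 (0.0295% of all loci, 6 in number) and 6 without morphine replicate 2 (1.11% of all loci). Rps23 and Rpl30 both have near-identical copies, and how reads with several matches were counted is not given in the sources used here. Nor do these sources say that the RNA libraries came from separate cultures, so the p-values measure the spread between these libraries, which may be technical.

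Rps23 held 68 and 101 counts in control and 2910 and 715 counts after morphine. On the CPM scale the values were 2.48 and 3.43 in control and 115 and 25.4 after morphine. The groups did not overlap, but the 2 morphine libraries stood far apart from each other. The log2 fold change was 4.55 with a standard error of 0.62 and an adjusted p of 0.00993. Without morphine replicate 1 the log2 fold change was 3.10, and without morphine replicate 2 it was 5.27, so the size of this rise rests on which morphine library is used. The locus lies at chr13:90923122-90924732 on the forward strand, with all of its counted length in annotated exons.

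Rpl30 held 514 and 523 counts in control and 223 and 239 after morphine, or 18.7 and 17.8 CPM against 8.82 and 8.49 CPM. Replicates lay close together and the groups were well apart. The log2 fold change was -1.08 with a standard error of 0.09 and an adjusted p of 0.000459, which corresponds to 0.474 times the control level. It lies at chr15:34440505-34443276 on the reverse strand, where 1 other locus overlaps it.

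The next largest falls in the estimate were Rps27a and Rps29, neither of which passed the threshold. Rps27a, which encodes a fusion of ubiquitin and a small-subunit protein, held 1286 and 713 counts in control and 441 and 563 counts after morphine. Its control libraries differed by more than the gap between control replicate 2 and the morphine libraries. The log2 fold change was -0.92 with a standard error of 0.22 and an adjusted p of 0.058. It was -0.37 without control replicate 1 and -1.32 without control replicate 2, and passed the threshold in both of these fits. Only 35.4% of the counted length of this locus lay in annotated exons, and 1 other locus overlapped it.

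Rps29 was at 300.5 and 223.6 CPM in control and 197.4 and 206.6 CPM after morphine. Both morphine values lay below both control values, and control replicate 1 was highest. The log2 fold change was -0.37 with a standard error of 0.10 and an adjusted p of 0.074. It was -0.15 without control replicate 1 and -0.57 without control replicate 2, where it passed the threshold. The unnamed locus over its identical copy on chromosome 2 was at 82.3 and 80.2 CPM in control and 113 and 92.3 CPM after morphine, a log2 fold change of 0.34 with a standard error of 0.08 and an adjusted p of 0.056. Rps29 and its identical copy thus had estimates of opposite sign, each short of the threshold.

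Rps19, which is mutated in many cases of Diamond-Blackfan anaemia and helps the small subunit to mature, was at 207.3 and 209.1 CPM in control and 232.4 and 269.4 CPM after morphine. Its log2 fold change of 0.27 had a standard error of 0.06 and an adjusted p of 0.055. It was 0.26 without control replicate 1 and 0.28 without control replicate 2. Morphine replicate 2 lay further above control than morphine replicate 1, so the size of the estimate rests in part on that library. No copy of Rps19 at 95% identity was found. Rpl31, a protein at the exit of the peptide tunnel, was at 235 and 207.3 CPM in control and 302.6 and 229.1 CPM after morphine. Control replicate 1 exceeded morphine replicate 2, so the groups overlapped, and the log2 fold change of 0.27 had a standard error of 0.10 and an adjusted p of 0.167. It was 0.05 without morphine replicate 1, and 0.36 without control replicate 1 and 0.45 without morphine replicate 2, where it passed the threshold.

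**Figure D1:**
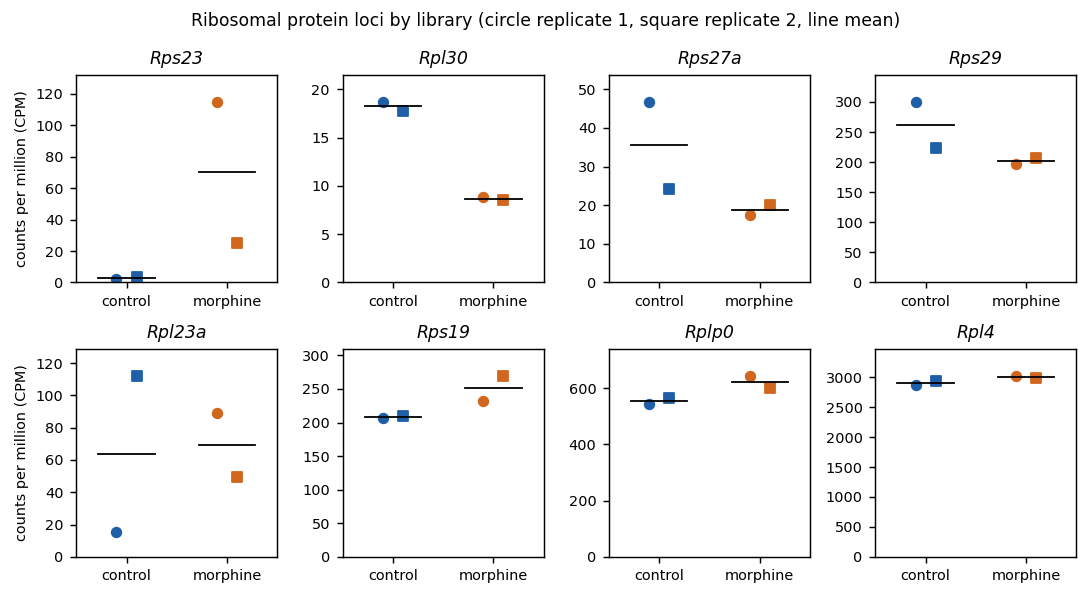
Level in CPM of 8 ribosomal protein loci in the 2 control and 2 morphine libraries, with lines at the group means. Rps23 was at 2.48 and 3.43 CPM in control and 115 and 25.4 CPM after morphine, Rpl30 fell from 18.7 and 17.8 to 8.82 and 8.49 CPM, and Rpl23a varied most within control, from 15.1 to 112 CPM.

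Some loci varied between replicates far more than they differed between conditions. Rpl23a, whose protein sits at the tunnel exit where nascent chains are met, was at 15.1 and 112 CPM in control and 89.4 and 49.6 CPM after morphine. It had 20 copies, 5 of them near-identical, and its log2 fold change was 0.12 with a standard error of 0.55. Rps2 was at 86.3 and 51.8 CPM in control and 88.4 and 71.4 CPM after morphine, Rpl36 at 143 and 79.3 against 109 and 94.1 CPM, and Rps12 at 195.1 and 257.4 against 310.6 and 205.2 CPM. By contrast, the median absolute log2 ratio between replicates over the 88 loci was 0.10 in control and 0.09 after morphine.

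Most of the other loci showed small differences. The median log2 fold change was 0.06, beside 0.0013 over all tested loci, and 63 of 88 estimates were above 0. At an unadjusted p under 0.05, 28 loci were higher and 6 lower, or 31.8% and 6.82% of the members, beside 9.7% and 10.8% of all tested loci. Each morphine value exceeded each control value in 32 loci (36.4%), beside 26% of all loci, and was lower than each control value in 8 loci (9.09%), beside 26.8% of all loci. These counts differed with the libraries left in, under the same assumption on the lone library, and with the trends for length and GC. Without morphine replicate 1, 7 loci were higher (7.95%, beside 4.31% of all loci) and 5 lower (5.68%, beside 4.94%) at an unadjusted p under 0.05, and the median was 0.02. Without control replicate 2, 27 were higher (30.7%, beside 10% of all loci) and 15 lower (17%, beside 11.3%), with a median of 0.04 and 49 of 88 estimates above 0. Without control replicate 1, 27 were higher (30.7%, beside 6.07%) and 5 lower (5.68%, beside 6.91%), with a median of 0.09. Without morphine replicate 2, 33 were higher (37.5%, beside 9.14%) and 5 lower (5.68%, beside 11.4%), with a median of 0.11. With the length and GC trends removed, 17 were higher (19.3%, beside 5.92% of all loci) and 14 lower (15.9%, beside 6.72%). The edgeR exact test called 8 loci (3.88% of all loci called) and DESeq2 called 11, all higher (3.2% of all loci called). DESeq2 gave no adjusted p for Rpl30, Rps27a and other loci with few counts. The small subunit had a median of 0.09 and 25 of 33 estimates above 0, and the large subunit a median of 0.05 and 38 of 55.

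**Figure D2:**
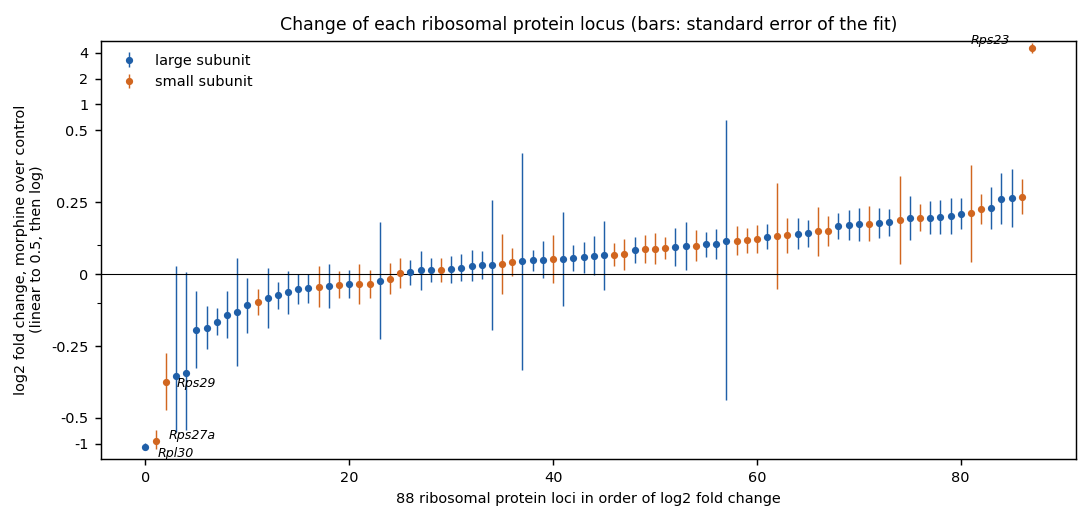
Log2 fold change of each of the 88 loci, in order, with the standard error of the fit as bars and the subunit as colour; the vertical axis is linear to 0.5 and logarithmic beyond. Rps23 (4.55) and Rpl30 (-1.08) stand apart, and 63 of the 88 points lie above 0.

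The members together took 3.12% and 3.10% of all counts in control and 3.43% and 3.22% after morphine. The mean share was 3.11% ± 0.0088 (SD, n = 2) in control. After morphine it was 3.32% ± 0.14 (SD, n = 2), higher by 0.215 percentage points. The excess in morphine replicate 1 was larger than that in morphine replicate 2: without replicate 1 the difference was 0.113 and without replicate 2 it was 0.317. The 21 loci with no near-identical copy took 1.27% and 1.28% of counts in control and 1.41% and 1.34% after morphine. Among these 21 loci, 16 estimates were above 0 and the median log2 fold change was 0.07. None passed edgeR's quasi-likelihood test. At an unadjusted p under 0.05, 7 were higher (33.3%, beside 9.7% of all loci) and 1 lower (4.76%, beside 10.8%). The edgeR exact test called 2 (3.88% of all loci called) and DESeq2 called 3 (3.2% of all loci called).

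The estimates moved with the base composition of the locus. Among all tested loci with a GC value, those richer in GC had higher estimates (Spearman's rho of 0.485 across 20325 loci of the same 4 libraries), while over the 88 members rho was 0.223. The median estimate of all loci went from -0.21 below 40% GC to 0.18 at 60% GC and above. Ribosomal protein loci had a median GC content of 52.3%, against 49.7% over all tested loci. In the bin from 50% to 55% GC the 33 members had a median of 0.12, against 0.05 for all loci, whereas in the bin from 55% to 60% the 20 members had a median of 0.06, against 0.13 for all loci. After trends with length and GC were removed from each library, the members' median was 0.01 and 48 of 88 estimates were above 0. Rps23, Rpl30 and Rps29 were then called, beside 0.546% of all loci (111 of 20325), with log2 fold changes of 4.53, -1.09 and -0.43. Whether the trend with GC arose in the cells or in the libraries was not tested.

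**Figure D3:**
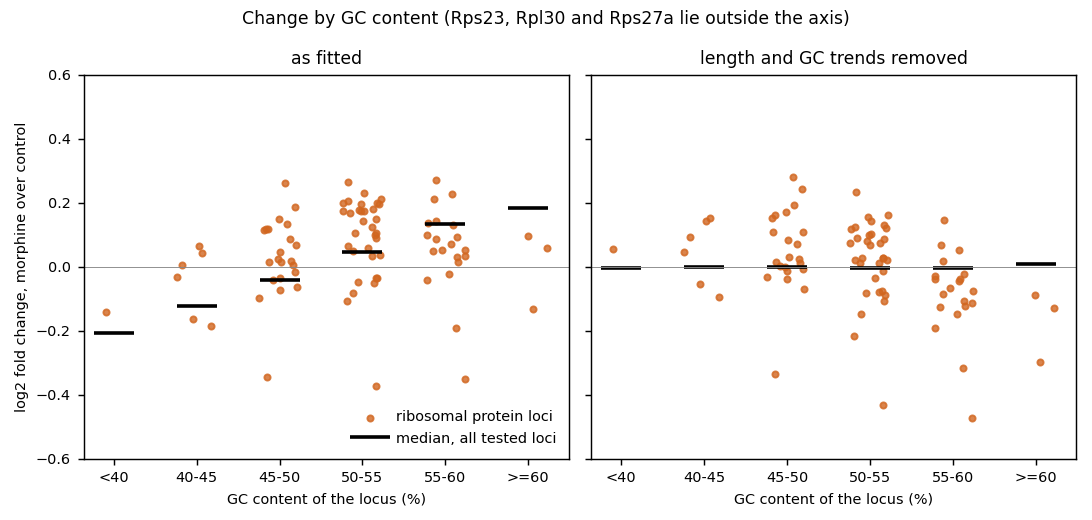
Log2 fold change of the members (points) by GC content of the locus, with the median of all tested loci in each bin (bars), as fitted on the left and with length and GC trends removed on the right; Rps23, Rpl30 and Rps27a lie outside the axis. The bars go from -0.21 to 0.18 on the left and lie near 0 on the right, where 48 of the 88 members are above 0.

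Levels were compared between loci per length, as CPM per kilobase (RPKM) over the length given in the table. Rplp1, an acidic protein of the ribosomal stalk that recruits translation factors, was highest, with 2755 and 2291 RPKM in the control libraries and a mean of 2523 ± 328 RPKM (SD, n = 2). Rpl4, a large-subunit protein that lines the peptide tunnel, was next, at 1776 and 1822 RPKM, a mean of 1799 ± 32.5 RPKM (SD, n = 2). After morphine the mean levels were 2547 RPKM for Rplp1, with an adjusted p of 0.939, and 1859 RPKM for Rpl4, with an adjusted p of 0.498. The lowest tested loci were Rpl32l at 1.05 ± 0.43 RPKM (SD, n = 2), the chromosome 5 locus named Rpl26 at 1.24 ± 0.032 RPKM and the chromosome 9 locus of Rpl29 at 1.38 ± 0.32 RPKM. These lowest 3 did not differ from each other beyond their spread. The median over the 88 loci was 199 RPKM in control, against 3.32 RPKM over all tested loci, and 7 members were among the 100 loci with the highest CPM.

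The number of near-identical copies went with the level. The 21 loci without one had a median control level of 306 RPKM, the 41 loci with 1 to 3 had 265 RPKM and the 26 loci with 4 or more had 98.5 RPKM, with a Spearman's rho of -0.349 between number of near-identical copies and level over the 88 loci, which share the same libraries. Rpl21, with 15 near-identical copies, was listed at 4.46 ± 0.13 RPKM (SD, n = 2) and Rps23 at 5.32 ± 1.22 RPKM in control. Reads of these genes that were counted elsewhere, or nowhere, cannot be seen in the table, and their part in the low levels was not tested. The spread of the log2 fold changes was 0.11 (SD) over loci without a near-identical copy, 0.21 with 1 to 3 and 0.93 with 4 or more, the last including Rps23 and Rpl30.

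**Figure D4:**
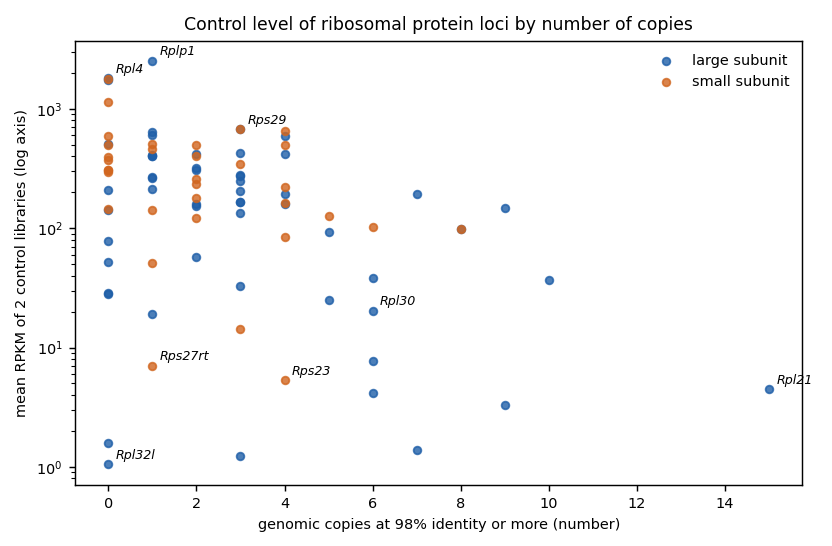
Mean RPKM in the 2 control libraries (log axis) against the number of genomic copies at 98% identity or more, 1 point per locus, coloured by subunit. Loci with 4 or more copies had a median of 98.5 RPKM, loci with none 306 RPKM; Rpl21, Rps23 and Rpl30 are among the low ones.

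Some copies lay in loci of the table that carried no gene name. Of 171 such loci, 120 were tested, and 91 of these (75.8%) had an estimate above 0, beside 50.3% of all tested loci, with a median log2 fold change of 0.157. With length and GC trends removed their median was 0.164 and 3 were called, beside 0.546% of all loci. The quasi-likelihood test called 3 of the 120, all upregulated, beside 1.52% of all loci, while the edgeR exact test called 6 (3.88% of all loci called) and DESeq2 4 (3.2% of all loci called). At an unadjusted p under 0.05, 25 were higher (20.8%, beside 9.7% of all loci) and 2 lower (1.67%, beside 10.8%). The locus over a copy of Rps14 on chromosome 15 was at 79.5 and 84.2 CPM in control and 113 and 104 CPM after morphine (log2 fold change 0.41, standard error 0.06, adjusted p = 0.0119). The locus over a copy of Rps20 on chromosome 3, 99.7% identical, was at 35.7 and 37.4 against 50.9 and 44.4 CPM (log2 fold change 0.38, standard error 0.07, adjusted p = 0.0349). The locus over a copy of Rps28, also on chromosome 3, was at 5.93 and 6.52 against 9.29 and 8.63 CPM (log2 fold change 0.52, standard error 0.11, adjusted p = 0.0488). The genes themselves had log2 fold changes of 0.17, 0.04 and 0.04, none past the threshold. Together the unnamed loci over copies took 0.254% and 0.252% of counts in control and 0.279% and 0.273% after morphine.

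Genes with a second, diverged member allowed a comparison within pairs. Rps27 and Rps27rt had the same coding sequence over 252 bases, while Rps27l matched Rps27 at 76.2% of the aligned bases. Their first 90 coding bases are shown, with capitals where a base differs from Rps27.
Rps27: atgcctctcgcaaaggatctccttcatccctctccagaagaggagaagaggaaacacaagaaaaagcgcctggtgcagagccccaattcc
Rps27l: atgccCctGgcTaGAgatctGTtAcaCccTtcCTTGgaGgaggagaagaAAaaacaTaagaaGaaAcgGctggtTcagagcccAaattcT
Rps27rt: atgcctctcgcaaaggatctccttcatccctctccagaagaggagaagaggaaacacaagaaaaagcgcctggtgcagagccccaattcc

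Rps27 was at 501 ± 73.0 RPKM (SD, n = 2), Rps27l, which is induced by p53, at 294 ± 8.52 RPKM and the single-exon Rps27rt at 7.05 ± 0.21 RPKM in control. Their log2 fold changes were 0.05, -0.03 and 0.13, with adjusted p of 0.778, 0.752 and 0.735. Rps27l differed from Rps27 at 24 of the 90 bases shown and Rps27rt at 0.

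None of the tissue-restricted paralogs passed the test. Rpl3l, the form of Rpl3 found in heart and skeletal muscle, was at 2.77 and 2.31 CPM in control and 2.81 and 2.20 CPM after morphine, and Rpl3 stayed between 553 and 577 CPM. Rpl10l, a retrogene active in the testis that shares 84.7% of its bases with Rpl10, was at 28.1, 30.1, 30.6 and 30.3 CPM, and Rpl10 at 293.6, 280.8, 290.2 and 270.6 CPM in the same order. Rpl39l, 85.0% identical to Rpl39, was at 23.4 and 22.2 CPM in control and 19.5 and 20.5 CPM after morphine, while Rpl39 was at 71.9 and 82.5 against 102 and 83.6 CPM. Both of these had groups that did not overlap, in opposite directions, with log2 fold changes of -0.19 (adjusted p = 0.188) and 0.26 (adjusted p = 0.127). Without control replicate 2 the value of Rpl39 was 0.37. Control replicate 2 and morphine replicate 2 of Rpl39 lay close together, at 82.5 and 83.6 CPM. Its difference thus rests mostly on control replicate 1 and morphine replicate 1. The difference between these paralogs was not tested.

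Rps4x, the X-linked form of a small-subunit protein, was at 660.2, 660.4, 654.6 and 678.7 CPM, with a log2 fold change of 0.01. Rps4l, which matched it at 631 of 789 aligned bases, was at 359 and 379 CPM in control and 452 and 412 CPM after morphine, a log2 fold change of 0.23 with a standard error of 0.05 and an adjusted p of 0.055. Rpl22 had a log2 fold change of -0.05 and Rpl22l1 of -0.14, at 376, 337, 347 and 341 CPM and at 118, 96.7, 93.5 and 101 CPM. Entries of the neighbouring gene Eif5a2 are part of the Rpl22l1 locus. Rpl7 was at 790, 838, 878 and 847 CPM and Rpl7l1, a nucleolar relative, at 307, 302, 303 and 309 CPM, with log2 fold changes of 0.08 and 0.01. Rpl36a had a log2 fold change of -0.06, and its paralog Rpl36al lay in a locus named after Dnaaf2 and was no member. Adjusted p values of these loci lay between 0.306 and 0.957, Rps4l aside. Without control replicate 2 the values were 0.27 for Rps4l, -0.27 for Rpl22l1 and -0.19 for Rpl36a. Without control replicate 1 those of Rpl22l1 and Rpl36a were 0.0058 and 0.081, of the opposite sign. Rps4l was at 0.29 without morphine replicate 2.

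The stalk proteins recruit the GTPases of translation to the large subunit. Rplp0, its anchor, was at 542 and 566 CPM in control and 643 and 602 CPM after morphine, a log2 fold change of 0.17 with a standard error of 0.05 and an adjusted p of 0.083. Without control replicate 2 it was 0.20 and passed the threshold. Rplp1 and Rplp2 bind to Rplp0 as dimers. Rplp1 was at 1289 and 1072 CPM in control and 1222 and 1161 CPM after morphine, and Rplp2 at 433 and 388 against 452 and 399 CPM. The groups overlapped in both, and the log2 fold changes were 0.01 and 0.05.

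Rpl5 and Rpl11 bind 5S ribosomal RNA and, outside the ribosome, the p53 ligase Mdm2. Rpl5 was at 410 and 389 CPM in control and 388 and 371 CPM after morphine (log2 fold change -0.07, standard error 0.05). Rpl11 was at 177 and 183 CPM in control and 217 and 200 CPM after morphine (log2 fold change 0.21, standard error 0.05, adjusted p = 0.064), with 19.1% of its counted length in annotated exons. Without control replicate 2 the value of Rpl11 was 0.24 and passed the threshold. Rps6, the target of S6 kinase, was at 143 and 141 against 158 and 150 CPM, a log2 fold change of 0.12 with an adjusted p of 0.217. Rpsa, which is also a laminin-binding protein, was at 422 and 433 against 475 and 453 CPM, a log2 fold change of 0.12 with an adjusted p of 0.165. In both, each morphine library lay above each control library, but the test was not passed.

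Start-site sequences were available in the RefSeq table (GRCm38.p6) for 64 of the 85 symbols, as 76 entries. A run of pyrimidines that began with C and reached 7 bases lay between 10 bases before and 30 after the start in 35 of 76 entries (46.1%), against 17.2% of all 32851 entries. Runs of 9 or more were found in 25% and 7.04%. The examples below span that window, with the longest such run in capitals, and show the tract in genes of both subunits beside Rps23, the locus that rose.
Rpl27a (chr7:109519185-109519224, + strand): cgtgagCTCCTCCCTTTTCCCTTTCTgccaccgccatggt
Rpl35 (chr2:39005102-39005141, - strand): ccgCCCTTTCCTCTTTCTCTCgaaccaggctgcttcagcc
Rpl15 (chr14:18270957-18270996, - strand): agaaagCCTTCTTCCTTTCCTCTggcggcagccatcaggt
Rpl7a (chr2:26910797-26910836, + strand): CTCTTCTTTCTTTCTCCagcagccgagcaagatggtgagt
Rps10 (chr17:27635215-27635254, - strand): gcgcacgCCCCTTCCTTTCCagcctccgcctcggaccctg
Rps6 (chr4:86857338-86857377, - strand): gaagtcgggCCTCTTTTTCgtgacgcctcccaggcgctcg
Rplp2 (chr7:141447641-141447680, + strand): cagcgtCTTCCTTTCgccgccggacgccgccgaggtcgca
Rps27 (chr3:90213619-90213658, - strand): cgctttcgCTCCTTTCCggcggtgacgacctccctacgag
Rps23 (chr13:90923112-90923151, + strand): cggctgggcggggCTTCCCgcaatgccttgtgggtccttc

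Among the examples shown, the runs ranged from 20 bases in Rpl27a and 18 in Rpl35 to 6 in Rps23. The median over the 76 member entries was also 6, against 4 over all entries. Some members had shorter runs than Rps23, such as Rpl5 with 3 bases and Rpl7l1 with 2. The run of Rpl7a begins at the first base of the window and may be longer, and the annotated start can lie some bases from the start in use. In the whole entries of 250 bases before to 50 after the start, the ETS-type motif CCGGAAG on either strand was present in 34.2% of member entries and 8.86% of all entries. AAGATGGC, a motif of YY1, was present on either strand in 9.21% and 2.75%, GGGCGG on either strand in 56.6% and 35.7%, and TATAAA on the sense strand in 9.21% and 8.32%. These are counts of letters in a fixed window. The log2 fold changes of the loci with the longest runs shown were on both sides of 0, from -0.17 in Rpl15 to 0.20 in Rpl7a.

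H3K27me3 peaks were rare at the promoters of these genes. Starts were those annotated for protein-coding transcripts, or the upstream end of the locus where none of that name was annotated. A peak lay within 1 kb of a start for 3 of 88 loci in each control library and for 5 and 4 loci after morphine. That is 3.41% to 5.68% of members, while 20.4% to 21.8% of the 13500 promoters of tested genes carried a peak. Over all libraries 9 loci had one. Rpl26 on chromosome 11 carried a peak in all 4 libraries, at chr11:68899041-68900847 in control replicate 1, with scores of 103.5 and 68.0 in control and 106.8 and 191.8 after morphine. Rps27rt carried one in both control libraries and in morphine replicate 2, and Rpl10l in both control libraries but in neither morphine library. Peaks at Rpl27, Rpl3, Rpl7 and Rps3 were found in morphine replicate 1 alone, and at Rpl24 and Rps2 in morphine replicate 2 alone. No locus gained a peak in both morphine libraries, and none of the 9 was called in RNA, with log2 fold changes from -0.19 to 0.21. Without morphine replicate 1, 5 loci had a peak. The libraries held 10305 and 13778 peaks in control and 8681 and 12282 after morphine. Neither Rps23 nor Rpl30 had a peak in any library.

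Other genes of the translation machinery were taken from lists and are given for comparison. Of 3 further ribosomal proteins, Rack1 and Fau had log2 fold changes of 0.11 and 0.17 and Rps3a1 of -0.07. None was called by edgeR's quasi-likelihood or exact tests. At an unadjusted p under 0.05, 2 of the 3 were higher, beside 9.7% of all loci, and DESeq2 called 1 (3.2% of all loci called). Mitochondrial ribosomal proteins, which build the separate ribosome of the organelle, had a median of 0.06 over 74 loci, 54 above 0. At an unadjusted p under 0.05, 20 were higher (27%) and 1 lower (1.35%), beside 31.8% and 6.82% of the cytosolic ribosomal protein loci and 9.7% and 10.8% of all loci. The edgeR exact test called 3 (3.88% of all loci called) and DESeq2 1 (3.2% of all loci called). In the quasi-likelihood test Mrpl28 alone rose, from 82.7 and 91.0 to 112 and 104 CPM (log2 fold change 0.31, adjusted p = 0.0405), followed in the estimate by Mrps12 at 0.28, while Mrps36 and Mrpl1 had the lowest at -0.24 and -0.22. Elongation factors and other messenger RNAs with TOP tracts had a median of -0.04 over 17 loci, 5 above 0, from Eif3e at -0.21 and Hnrnpa1 at -0.17 to Eef1d at 0.08 and Eef1g at 0.08. None of them was called by either edgeR test; 4 were lower at an unadjusted p under 0.05 (23.5%, beside 10.8% of all loci) and DESeq2 called 4 (3.2% of all loci called). The ribosomal protein loci and the other TOP messenger RNAs thus had medians of opposite sign, a difference that was not tested.

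Ribosome biogenesis factors had a median of 0.01 over 30 loci, 15 above 0. At an unadjusted p under 0.05, 5 were higher (16.7%, beside 9.7% of all loci) and 3 lower (10%, beside 10.8%). The edgeR exact test called 1 (3.88% of all loci called) and DESeq2 4 (3.2% of all loci called). Nhp2, a protein of the H/ACA particles that modify ribosomal RNA, rose from 318 and 335 to 396 and 374 CPM (log2 fold change 0.24, adjusted p = 0.0419), and Rrp9 had 0.20, whereas Gar1 and Rrn3 had -0.23 and -0.17. Growth regulators had a median of -0.02 over 16 loci, 5 above 0. At an unadjusted p under 0.05, 3 were higher (18.8%, beside 9.7% of all loci) and 1 lower (6.25%, beside 10.8%). The edgeR exact test called 1 (3.88% of all loci called) and DESeq2 3 (3.2% of all loci called). Myc, a transcription factor that drives ribosome production, rose from 47.3 and 47.3 to 57.6 and 55.5 CPM (log2 fold change 0.26, adjusted p = 0.04996), and Eif4ebp1 had 0.19. Larp4 and Rps6kb1 had -0.19 and -0.13. Neither Mrpl28, Nhp2 nor Myc was called once the length and GC trends were removed.

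**Figure D5:**
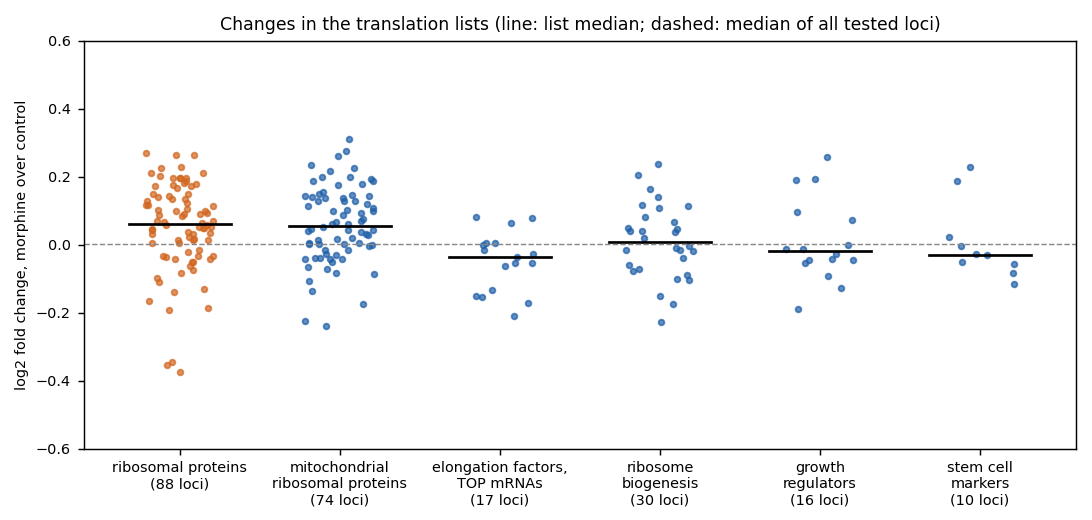
Log2 fold change of the ribosomal protein loci and of the other lists (1 point per locus, lines at list medians, dashed line at the median of all tested loci); Rps23, Rpl30 and Rps27a lie outside the axis. The median was -0.04 for elongation factors and TOP messenger RNAs and 0.06 for the ribosomal proteins.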

How the data were processed

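RNA-Seq and H3K27me3 ChIP-Seq libraries, 2 per condition, were grouped by their titles. The authors deposited raw counts per assembled locus, made, per the methods and the submitters' processing notes, with Trim Galore 0.6.2, HISAT2 2.1.0, StringTie 1.3.6 and featureCounts 1.6.4 on mm10. How featureCounts treated strand and reads with several matches is not given in the sources used here. The deposited peak score is -10 log10 of the p-value from MACS, called by the authors in each library. Overlapping loci are listed separately, so some reads may be counted more than once, and loci without a gene name took 1.88% to 2.40% of counts. ChIP reads were aligned with Bowtie2 2.3.5.1, and the lowest peak score is 50. The authors' own tests used edgeR 3.26.4. All loci past filterByExpr were fitted with edgeR 4.0.16 (TMM, quasi-likelihood test, Benjamini-Hochberg adjustment over 20350 loci, FDR of 0.05) in R 4.3.3, tested on simulated data. The standard error was the estimate divided by the square root of F. CPM used the TMM library sizes. Alternatives were DESeq2 1.42.0, the edgeR exact test, other scalings and filters, a replicate block, removal of length and GC trends, and leaving out each library. P-values measure the spread between these libraries, at 25081266 to 29531096 counts each. Copies were found with BLAST 2.17.0 in GRCm38. Promoters were taken from GENCODE starts, or from the upstream end of a locus without one.

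Members and lists were chosen with earlier results of these data known. Named were members past an FDR of 0.05, Rps23 and Rpl30, paralog pairs, the stalk genes, Rps6, Rpsa, Rpl5, Rpl11, Rps19, Rpl10 and Rps27a, the 3 highest and 3 lowest by control RPKM, and the 3 largest rises and falls. Rpl23a, Rps2, Rpl36 and Rps12, named for their replicate spread, were chosen after their values were seen, as were the genes named for copies, start sites or peaks. In the lists, the extremes by log2 fold change were named. A locus and a sequence that this rule or the text would have shown are not reported here.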

Additional observations from a re-analysis of the deposited data

How the results depend on the processing

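The median log2 fold change of the ribosomal protein loci stayed positive under every alternative run, from 0.01 with length and GC trends removed to 0.11 without morphine replicate 2 against the reported 0.06. The number of loci called changed as well. From the reported 2 it went to 8 with the edgeR exact test, 11 with DESeq2, 8 with total-count scaling, 25 without a count filter, 4 with the length trend removed and 6 in the uncorrected fit of the 20325 loci with a GC value. It stayed at 2 with RLE scaling, TMM on other loci and an FDR of 0.01, was 3 with length and GC trends removed, was 0 once loci with near-identical copies were left out, which removes Rps23 and Rpl30, and lay between 2 and 30 when 1 library was left out (11 without control replicate 1, 30 without control replicate 2, 6 without morphine replicate 2), where the lone library of a condition is assumed to vary like the 2 of the other. All loci moved too, from 309 calls to 790 (exact test), 652 (DESeq2), 515 (total count), 1657 (no filter) and 329 (length trend removed). They moved to 490 in the uncorrected fit and 111 with length and GC trends removed. With RLE scaling 312 of all loci were called and with TMM on other loci 308. At an FDR of 0.01, 24 of all loci were called (0.118%). The reading of the name rule that retained 73 loci, added after the data were seen, left 2 calls, a median of 0.06 and a share difference of 0.164 percentage points.

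With the replicate number as a block, 15 ribosomal protein loci were called and 1128 of all loci. The deviations of same-numbered libraries had a correlation of 0.026 over all loci and of -0.38 over the ribosomal protein loci, so the numbers were not shown to pair the libraries.

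The share of counts from the members differed by 0.215 percentage points, by 0.0968 when loci with near-identical copies were left out, and by 0.113 to 0.317 with 1 library left out. Promoters with a peak numbered 9, and 5 at a score of at least 100, 10 within 3 kb, 6 by peak midpoint, 8 with equal numbers of peaks, and 5 to 9 with 1 library left out (5 without morphine replicate 1).

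Rps23 and Rpl30 were called in every fit that gave them an adjusted p. Of 33 single-gene estimates 10 others passed the threshold under at least 1 alternative, among them Rps19, Rps4l and Rps27a in 8 each, of which the replicate block is 1; of 453 values, 28 changed sign, none past the threshold. With length and GC trends removed the changed values were Rpl22l1 0.055, Rpl29 on chromosome 9 -0.078, Rplp1 -0.12, Rplp2 -0.13, Rps27 -0.067 and Rps27l 0.045. With the length trend removed they were Rpl29 on chromosome 9 -0.011 and Rps4x -0.029. With 1 library left out the estimates spanned -0.086 to 0.015 for Rpl10, -0.13 to 0.026 for Rpl22, -0.27 to 0.0058 for Rpl22l1, -0.25 to 0.29 for Rpl29 on chromosome 9, -0.019 to 0.047 for Rpl3, -0.33 to 0.52 for Rpl32l, -0.19 to 0.081 for Rpl36a, -0.20 to 0.15 for Rpl3l, -0.0078 to 0.020 for Rpl7l1, -0.11 to 0.15 for Rplp1, -0.043 to 0.14 for Rplp2, -0.087 to 0.21 for Rps27, -0.015 to 0.26 for Rps27rt and -0.013 to 0.040 for Rps4x.

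With 2 libraries per group, small differences could not be resolved, and a locus below the threshold is not shown to be equal in both conditions.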
